A study of Mus musculus with 2 samples.

Results

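The urinary tract genes described here fall into 3 roles. Tbx18, Tshz2, Tshz3 and Myocd encode nuclear factors of the mesenchyme that wraps the ureter and becomes its smooth muscle. Upk1a, Upk1b, Upk2, Upk3a and Upk3b encode uroplakins, and Foxa1 encodes a forkhead transcription factor of the epithelium. These 10 genes were chosen by name from 21938 protein-coding genes of GENCODE release M21, and all 10 were found in the annotation. DNase I hypersensitive sites, stretches of open chromatin that the enzyme cuts readily, were mapped in kidney tissue of newborn mice (strain B6NCrl, age 0 days), with no genotype change or treatment in the labels. The study held 1 group of 2 replicates, each with its own peak list. The labels give the replicates separate tissue records but a single donor record. No label states separate animals, and the spread given here may therefore be technical. The labels name kidney and do not say how much renal pelvis or ureter was dissected with it.

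The ureter is a tube of epithelium, the urothelium, surrounded by mesenchyme that differentiates into smooth muscle. Tbx18 is a T-box transcription factor that marks the undifferentiated ureteric mesenchyme. Tshz3, a teashirt zinc finger factor, is needed for smooth muscle differentiation in the proximal ureter, and Tshz2 is its paralog. Myocardin, the product of Myocd, is a coactivator of the serum response factor that switches on contractile genes. Uroplakins form the crystalline plaques of the apical urothelial membrane: the tetraspanins Ia and Ib each pair with a partner that crosses the membrane once, Ia with uroplakin II and Ib with uroplakin IIIa or IIIb. Foxa1 is a pioneer factor that takes part in urothelial differentiation and in uroplakin expression.

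DNA at the starts of 6 of the genes is shown for its CpG dinucleotides. It comes from the RefSeq assembly GRCm38.p6, which is the mm10 build of the peak lists, 5′ to 3′ on the strand of the gene and without transcribed exons of protein-coding genes. Capitals mark CpG dinucleotides. The Tbx18 site (chr9:87731301-87731450, minus strand) and the part of the Myocd site before its transcript (chr11:65269990-65270150, minus strand) held 10 CpG each. The parts of the sites just before Upk1a (chr7:30612848-30612970, minus strand) and Upk1b (chr16:38800329-38800370, minus strand) held 0, and that before Upk3a (chr15:85017061-85017140, plus strand) held 4. The 150 bp before the annotated start of Upk3b (chr5:136038346-136038495, plus strand), where neither replicate had a peak, also held 0. These stretches differ in length, from 42 to 161 bp, and the sites farther from the starts of Upk1a and Upk2, shown later, held 6 and 4 CpG in 150 bp.
Tbx18: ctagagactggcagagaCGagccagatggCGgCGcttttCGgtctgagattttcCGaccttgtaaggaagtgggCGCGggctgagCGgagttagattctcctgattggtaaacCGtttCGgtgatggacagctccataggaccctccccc
Myocd: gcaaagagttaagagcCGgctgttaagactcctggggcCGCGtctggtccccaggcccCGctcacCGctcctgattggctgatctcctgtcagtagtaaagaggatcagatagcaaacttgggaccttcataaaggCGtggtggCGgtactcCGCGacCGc
Upk1a: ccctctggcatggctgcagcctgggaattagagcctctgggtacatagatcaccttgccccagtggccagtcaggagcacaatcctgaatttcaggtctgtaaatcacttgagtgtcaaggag
Upk1b: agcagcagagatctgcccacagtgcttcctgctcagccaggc
Upk3a: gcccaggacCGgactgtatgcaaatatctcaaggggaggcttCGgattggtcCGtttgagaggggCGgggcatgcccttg
Upk3b: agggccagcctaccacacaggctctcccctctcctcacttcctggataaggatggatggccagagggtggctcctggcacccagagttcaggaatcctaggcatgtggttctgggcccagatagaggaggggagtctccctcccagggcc

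Windows of equal length allow a comparison of the roles. The observed over expected CpG ratio within 500 bp of the most 5′ transcription start site (TSS) was 0.753 for Tbx18, 0.478 for Tshz2, 0.824 for Tshz3 and 0.554 for Myocd. It was 0.473 for Foxa1. Among the uroplakin genes it was 0.132 for Upk1a, 0.294 for Upk1b, 0.224 for Upk2, 0.348 for Upk3a and 0.225 for Upk3b. The groups did not overlap, and the medians were 0.654 for the mesenchymal factors, 0.225 for the uroplakins and 0.553 for all protein-coding genes. All 5 uroplakin genes lay in the lower 2 CpG quintiles of protein-coding genes and none of the 4 mesenchymal factors did. This is a property of the reference genome and not of the tissue, but it bears on how often a promoter has a DNase peak. From quintile 1 to quintile 5, the share of all genes with a promoter peak in both replicates was 19.1%, 53.1%, 89.6%, 97.9% and 99%.

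Of the 10 genes, 9 had a DNase peak within 1 kb of a TSS in both replicates, while Upk3b had none in either. Such a peak was found for 71.8% of all protein-coding genes, so a count of 9 of 10 is no result about these genes by itself. The mesenchymal factors had one in 4 of 4 genes, where the shares of their CpG quintiles average 94.0%. The uroplakins had one in 4 of 5 genes, where the shares of their quintiles average 46.3%. In bulk tissue, fewer cells of a type and less open chromatin per cell cannot be told apart.

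The signal value that the authors deposited for each peak, whose scaling is not stated, describes its height. For each gene the strongest promoter peak was taken, and errors are the SD of 2 replicates. Tshz2 (chr2:169633013-170071816, plus strand) had signals of 127 and 134 in replicates 1 and 2 (mean 130 ± 4.80), in a peak centred at -357 bp in replicate 1 and -337 bp in replicate 2 from its most 5′ TSS. Tbx18 (chr9:87702800-87731260, minus strand) had 73.5 and 65.8 (69.7 ± 5.49), 116 bp before its TSS. Tshz2 was thus the highest of the 10 genes and the only one above the median of all promoters with a peak, 99.8.

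Tshz3 (chr7:36698118-36773553, plus strand) had 49.8 and 51.3 (50.5 ± 1.10), in a peak that lay just before its TSS. Myocd (chr11:65176561-65269989, minus strand) had 49.6 and 33.1 (41.4 ± 11.7), the widest relative spread between replicates of any of the 9 genes. Its start held the peak shown above, and an alternative promoter inside the gene, about 65 kb further on, had only weak peaks of at most 15.7. The 4 mesenchymal factors therefore spanned a wide range, and Tbx18, Tshz3 and Myocd all stayed below the median of genes in their own CpG quintile (ratios of 0.561, 0.378 and 0.509), while Tshz2 lay above it (1.61).

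Foxa1 (chr12:57540628-57546916, minus strand) had its strongest peak not at a TSS but in its intron, 1800 bp from the most 5′ TSS and 1005 bp from the other one, with 46.5 and 57.2 (51.9 ± 7.63). The peak at its most 5′ TSS had 19.3 and 12.0. The intron was thus more open than the start of the gene in both replicates.

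Among the uroplakin genes, Upk2 (chr9:44452715-44454976, minus strand) had 65.4 and 76.8 (71.1 ± 8.03), in an intronic peak 640 bp after its TSS. At the TSS of Upk2 itself replicate 1 had no peak and replicate 2 had one of 12.9. Upk1a (chr7:30603092-30612847, minus strand) had 49.1 and 44.1 (46.6 ± 3.57) in a peak 909 bp before its TSS, and a second peak close to the TSS had 25.2 and 35.5. The strongest open site of both genes was therefore away from the start itself.

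Upk1b (chr16:38773184-38800328, minus strand) had 30.5 and 29.4 (29.9 ± 0.773) and Upk3a (chr15:85017141-85022547, plus strand) had 15.1 and 17.2 (16.1 ± 1.50), each in a single peak at the TSS. Upk3a was the lowest of the 9 genes, at percentile 5.21 of all promoters with a peak. Upk3b (chr5:136038496-136046487, plus strand) had no peak within 1 kb, and the shared site closest to its TSS lay 1840 bp into the gene with 22.4 and 17.6. Within 1 kb, the genes of the Ia and II pair thus had stronger peaks than that of uroplakin Ib, and the genes of its partners IIIa and IIIb had a weak peak or none. Within 500 bp this order did not hold: Upk1a had a mean of 30.4, close to the 29.9 of Upk1b, and Upk2 had no peak in both replicates.

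**Figure D1:**
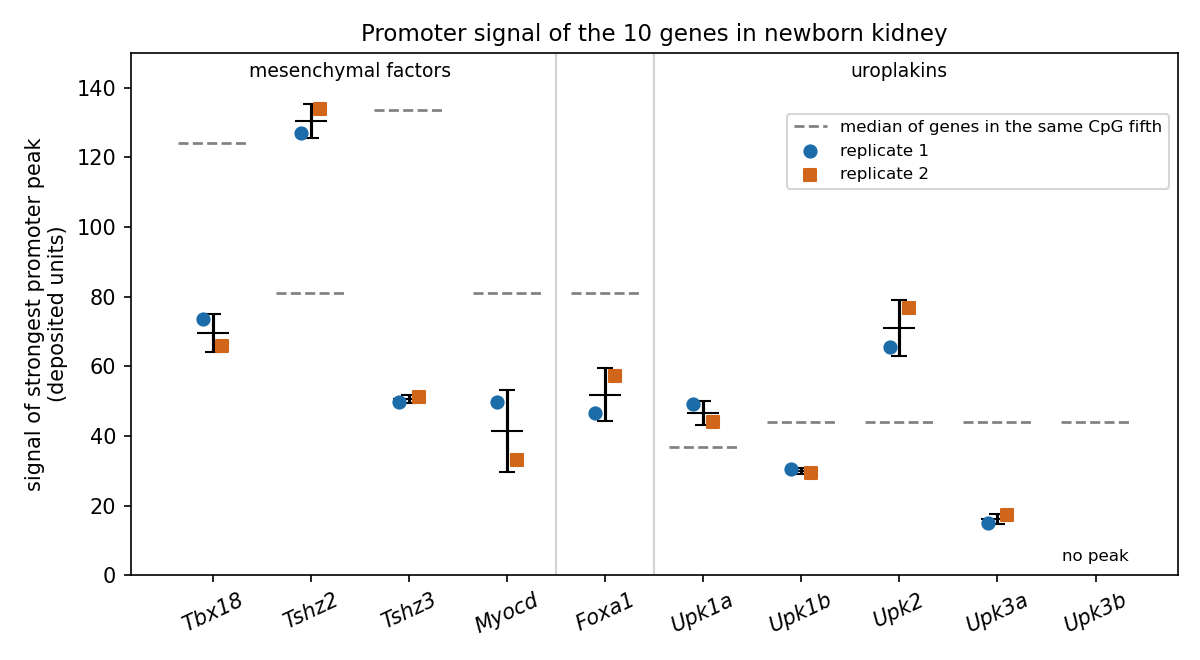
Deposited signal of the strongest DNase peak within 1 kb of a TSS (vertical axis, from 0) for each gene, with replicate 1 as circles, replicate 2 as squares, the mean as a black bar with its SD (n = 2), and the median of genes in the same CpG quintile as a dashed line. Tshz2 stands highest at 130, Upk3b has no peak, and 3 of 9 genes (Tshz2, Upk1a and Upk2) lie above their dashed line.

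The median promoter signal was 60.1 for the mesenchymal factors and 38.2 for the 4 uroplakin genes with a peak, and the ranges overlapped, since Upk2 and Upk1a stood above Myocd. Measured against genes of the same CpG quintile, 3 of 9 genes lay above the median (Tshz2 with 1.61 times, Upk2 with 1.62 times and Upk1a with 1.27 times), where 50% of genes do so by construction. With 1 group there was no test of the difference between the roles, and genes are not replicates.

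The peaks that lifted Upk1a and Upk2 each held an exact match to the consensus of CTCF, the factor of insulators and chromatin loops. The Upk1a site was chr7:30613681-30613830 (minus strand) and the Upk2 site was chr9:44454261-44454410 (minus strand). The Foxa1 intron site, chr12:57545041-57545190 (minus strand), held no such match but 1 match to the pattern of grainyhead-like factors, which are epithelial regulators. Capitals mark the CTCF match in the first pair and the grainyhead-like match in the last.
Upk1a, before the gene: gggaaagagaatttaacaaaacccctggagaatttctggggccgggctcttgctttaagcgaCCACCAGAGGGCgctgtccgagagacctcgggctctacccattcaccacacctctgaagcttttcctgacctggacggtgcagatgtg
Upk2, intron: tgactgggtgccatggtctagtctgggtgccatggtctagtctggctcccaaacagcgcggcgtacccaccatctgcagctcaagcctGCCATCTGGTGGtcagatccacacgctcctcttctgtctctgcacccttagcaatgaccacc
Foxa1, intron: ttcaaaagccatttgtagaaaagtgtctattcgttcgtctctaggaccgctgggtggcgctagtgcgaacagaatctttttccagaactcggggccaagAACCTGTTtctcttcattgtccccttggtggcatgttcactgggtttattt

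The CTCF pattern has 12 positions and was searched in the 150 bp at the middle of each site, on either strand. It was found in 0 of 11 shared sites in the promoter windows of the mesenchymal factors, 0 of 4 of Foxa1 and 2 of 6 of the uroplakins, against 1.64% of all shared promoter sites. The tally was made after the match in the Upk1a site had been seen, and a match is a description of letters, not of binding. With up to 1 mismatch, the pattern was found in 3 of 66 distal sites of the mesenchymal factors (4.55%) and 5 of 50 of the uroplakins outside their promoter windows (10%), against 12.4% of all distal sites. The strongest distal sites of Tshz2, Upk1b and Upk3a were among them. Among the distal sites in the top 10% of signal, 14.9% held an exact match and 36.8% a match with up to 1 mismatch, so strong sites of any gene held it more often.

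Beyond the promoters, distal sites were counted: sites with a peak of both replicates, centred within 50 kb of the most 5′ TSS. Their centre did not lie within 1 kb of a TSS of any gene. A peak whose edge alone reaches within 1 kb thus counts both as a promoter peak and as distal. Examples are the intron site of Foxa1, a site 1010 bp into Upk2 and the promoter peak of Upk3bl. There were 12 at Tbx18, 26 at Tshz2, 19 at Tshz3 and 9 at Myocd. Foxa1 had 16. Upk1a had 6, Upk1b 11, Upk2 12, Upk3a 6 and Upk3b 16. The median gene had 6, and more than that was found for 8 of the 10 genes, 4 of 4 mesenchymal factors and 3 of 5 uroplakins, against 46.6% of all protein-coding genes.

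The median was 15.5 for the mesenchymal factors and 11 for the uroplakins, a difference of 4.5 sites, and the ranges (9 to 26 and 6 to 16) overlapped. Counted on the distal peaks of each replicate alone, shared or not, the medians were 25 and 14 in replicate 1 and 23 and 12 in replicate 2, a difference of 11 in each. With peaks in the upper 50% of signal only, the medians were 5.5 and 5 and the difference 0.5. The difference between the roles was thus found among the weaker peaks.

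The sites were also sorted by whose TSS they lay nearest. At Tbx18, Tshz3 and Myocd gene spacing fixed the outcome in advance, as given below. Of the mesenchymal factors only Tshz2, with 18 of 26 sites nearest to its own TSS, could have come out otherwise. At the mesenchymal factors, 58 of 66 distal sites (87.9%) were nearer to that gene's most 5′ TSS than to any other protein-coding gene's. At the uroplakins 13 of 51 (25.5%) were. Summed over all protein-coding genes the count was 79544 of 158275, with a site counted once for each gene that has it in its window. The own sites of the mesenchymal factors were 12 at Tbx18, 18 at Tshz2, 19 at Tshz3 and 9 at Myocd. All 16 at Foxa1 were its own. The uroplakin genes had 2 at Upk1a, 4 at Upk1b, 1 at Upk2, 2 at Upk3a and 4 at Upk3b. The groups did not overlap in these counts. The medians were 15 for the mesenchymal factors and 2 for the uroplakins, beside a median of 2 over all genes. At Tbx18, Tshz3 and Myocd the count is that of all their distal sites, because no other coding TSS lies near. More than 2 were found for 4 of 4 mesenchymal factors and 2 of 5 uroplakins, against 43.2% of all protein-coding genes.

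**Figure D2:**
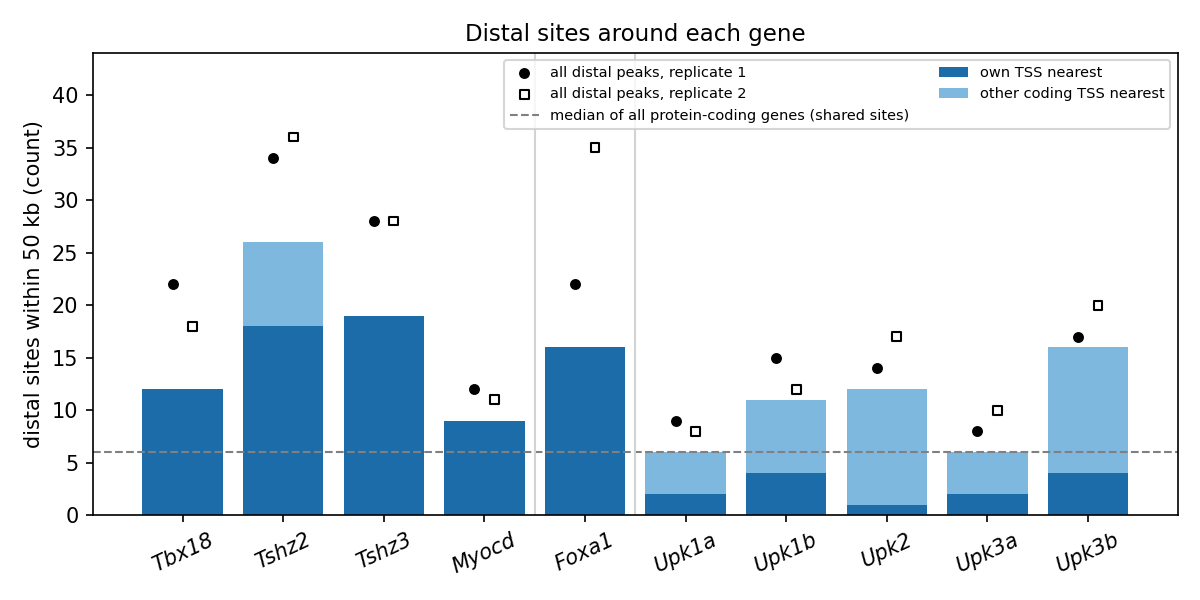
Number of distal sites within 50 kb of each gene (vertical axis, from 0), with shared sites as stacked bars (dark, nearest to that gene's TSS; light, nearest to another coding TSS), all distal peaks of replicates 1 and 2 as circles and squares, and the median shared count of all protein-coding genes, 6, as a dashed line. The bars of Tbx18, Tshz3, Myocd and Foxa1 are all dark, and those of the uroplakins are mostly light. At Tbx18, Tshz3 and Myocd gene spacing allows no light part.

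The genes also differed in their spacing. Counting other protein-coding genes with their most 5′ TSS within 50 kb, Tbx18, Tshz3 and Myocd had 0, and the nearest stood 475724 bp away for Tbx18 (Cep162), 895115 bp for Tshz3 (Zfp507) and 107028 bp for Myocd (Arhgap44). Tshz2 had 1 and Foxa1 had 1. The uroplakin genes had 9 at Upk1a, 1 at Upk1b, 5 at Upk2, 2 at Upk3a and 3 at Upk3b. With any annotated TSS counted, Upk1b had 2 (4930435E12Rik and B4galt4) and Upk1a 10, and the other genes had equal counts. For Tbx18, Tshz3 and Myocd the nearest other coding gene was thus over 100 kb away. Every site within 50 kb then lay nearest to their own TSS, whatever the tissue. The own shares of 12 of 12, 19 of 19 and 9 of 9 at these genes were fixed by spacing and are no result. At the other genes the part of spacing in the number of own sites was not tested.

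At 4 of the 5 uroplakin genes, a neighbour had a stronger promoter than the uroplakin gene itself. This held at 0 of 4 mesenchymal factors and for 37.8% of all protein-coding genes. Tbx18, Tshz3 and Myocd had no neighbour within 50 kb to compare, and Gm11011, the only one of Tshz2, had no promoter peak in both replicates. Upk3b had no promoter peak, so any neighbour with one counted as stronger. The contrast between the roles therefore cannot be told apart from gene spacing. Near Upk1a, which had 49.1 and 44.1, Rbm42 had signals of 269 and 285 and Kmt2b, a histone methyltransferase gene, 195 and 209. Near Upk2, which had 65.4 and 76.8, Bcl9l, a Wnt pathway coactivator gene, had 203 and 201, and the promoter shared by Trappc4 and Rps25 had 186 and 205. Near Upk3a, which had 15.1 and 17.2, 5031439G07Rik had 160 and 201. Fam118a had 127 and 144, which were the peaks of different promoter sites of that gene in replicates 1 and 2. Near Upk3b, which had none, Rasa4 had 133 and 136, while its paralog Upk3bl had 28.4 and 29.6. At Upk1b, 4930435E12Rik had no promoter peak in both replicates, and the strongest of 4 sites at inner starts of B4galt4 had a mean signal of 18.1.

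**Figure D3:**
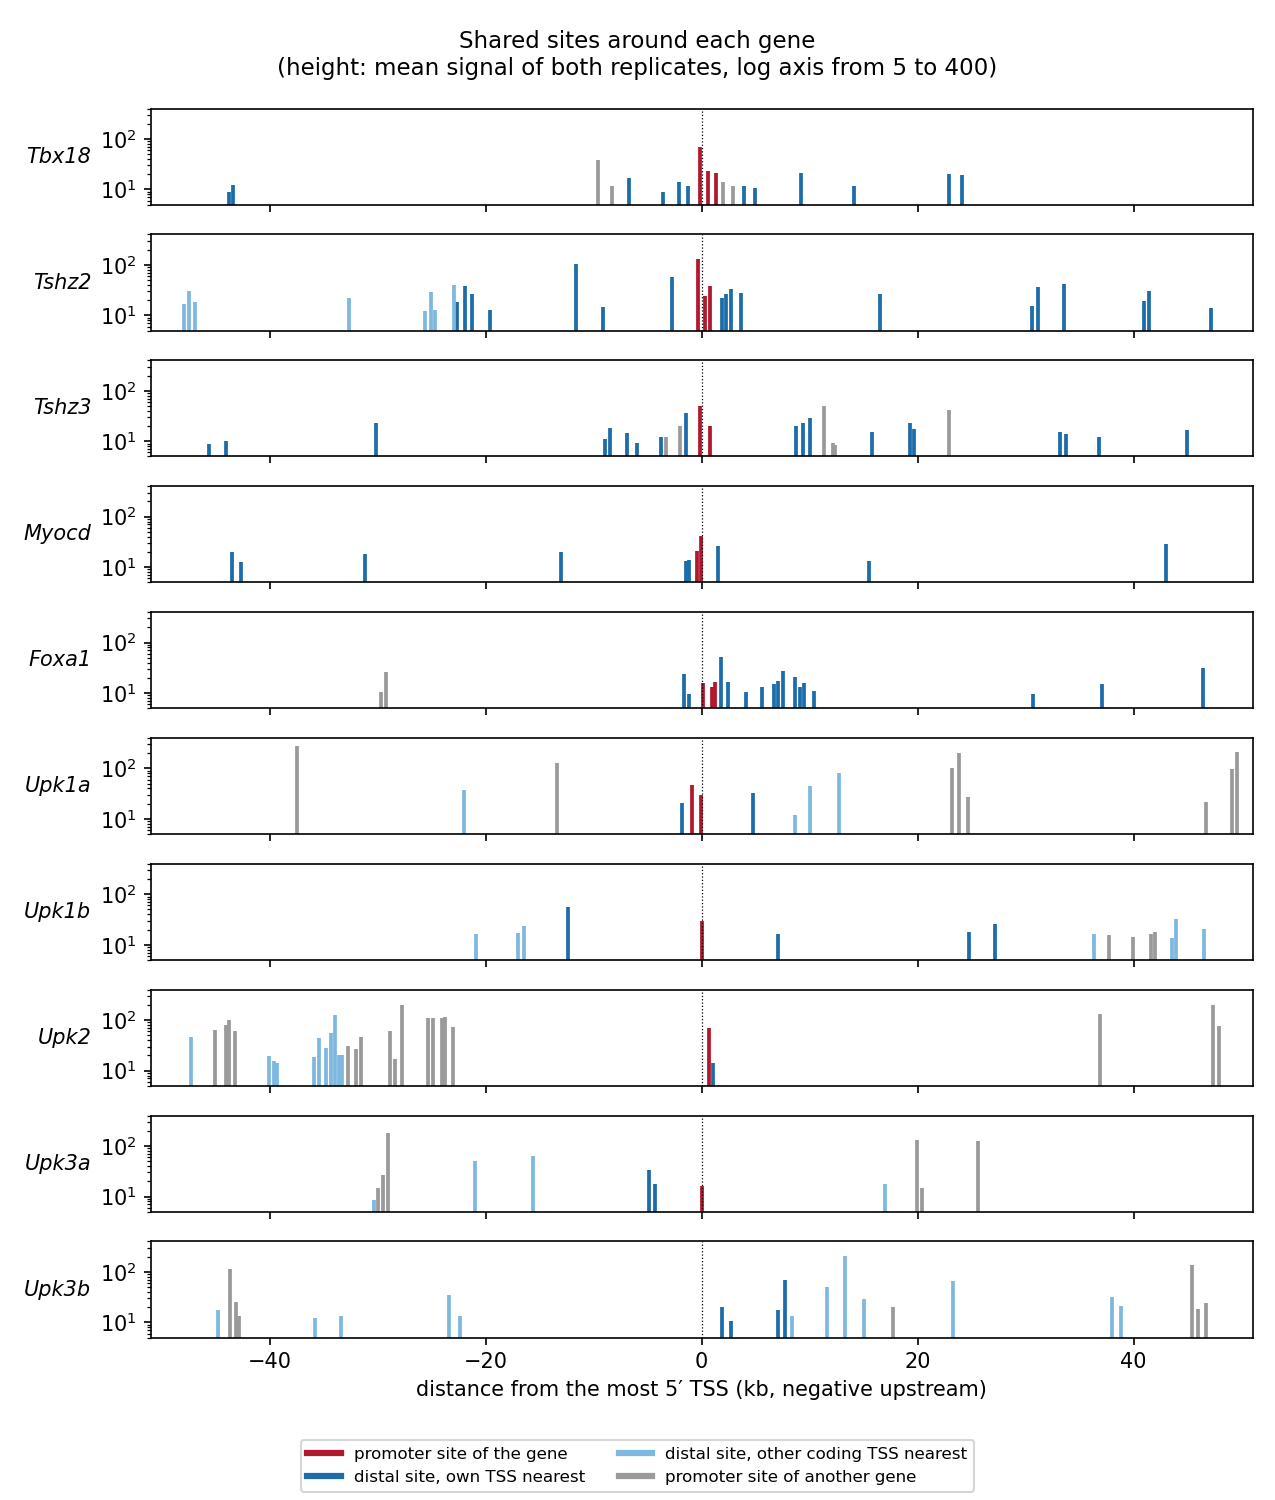
Sites of both replicates around each gene (horizontal axis in kb, 50 to each side of the most 5′ TSS, negative upstream, dotted line at the TSS), with the mean signal of both replicates as height on a log axis. Red marks promoter sites of the gene, dark blue distal sites nearest to its TSS, light blue distal sites nearest to another coding TSS, and grey promoter sites of other genes, which are tall at Upk1a, Upk2, Upk3a and Upk3b.

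Around Tbx18, 6 of the 12 distal sites lay in the gene's own introns and 6 upstream. The strongest, chr9:87721961-87722130 in an intron 9214 bp after the TSS, had 21.1 and 20.7, and no site there was in the top 10% of signal. At Tshz3 the strongest, chr7:36696541-36696710, lay 1492 bp before the TSS with 30.0 and 43.1. At Myocd it was chr11:65226961-65227110, in an intron 42953 bp after the TSS, with 30.4 and 26.8. Sites of higher mean signal at starts of transcripts not listed as protein-coding were not counted as distal. At Tbx18 this was chr9:87740761-87740910, 9576 bp before the TSS, with 33.5 and 44.5. At Tshz3 there was chr7:36709381-36709530, 11338 bp into the gene, with 45.1 and 54.1. Further on, at 22888 bp, Tshz3 had chr7:36720921-36721090 with 41.5 and 41.6.

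Tshz2 had the strongest distal site of the mesenchymal factors, chr2:169621281-169621450, which lay between genes 11647 bp before the TSS with 103 and 101. It is printed here on the plus strand because it was the only one of 66 in the top 10% of signal, with its 5 CpG in capitals.
Tshz2, upstream: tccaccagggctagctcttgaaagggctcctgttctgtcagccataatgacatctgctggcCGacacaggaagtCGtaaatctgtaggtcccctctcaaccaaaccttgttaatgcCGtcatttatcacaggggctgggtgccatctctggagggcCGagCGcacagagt

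At Foxa1, 14 of 16 distal sites lay downstream of the TSS, in or behind this short gene. Its strongest was the intron site shown above, which the 1 kb window around the second TSS also touches. The replicates differed most here: replicate 1 had 22 distal peaks and replicate 2 had 35. Of all peaks within 50 kb, 78.6% of the 28 in replicate 1 and 52.5% of the 40 in replicate 2 overlapped a peak of the other replicate. The 19 that replicate 2 had alone were weak, with a median signal of 10.5.

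The strongest distal sites of the uroplakin loci were stronger than those of the mesenchymal factors other than Tshz2. At Upk1a it was chr7:30600061-30600230, 12701 bp after the TSS and beyond the gene's end, with 76.4 and 82.8 and with Zbtb32 as the nearest TSS. At Upk1b it was chr16:38812641-38812790, 12388 bp before the TSS in an intron of the gene 4930435E12Rik, with 53.0 and 60.0. It was the only one of these 5 that lay nearest to the uroplakin gene's own TSS.

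At Upk2 it was chr9:44488881-44489030, in an intron of Bcl9l 33980 bp before the TSS, with 109 and 140. Within the window of Upk2, 11 of 12 distal sites lay in Bcl9l. At Upk3a it was chr15:85001481-85001650, 15575 bp before the TSS between genes, with 64.2 and 63.5. At Upk3b it was chr5:136051661-136051830, between Upk3b and Upk3bl and 13250 bp after the TSS of Upk3b, with 196 and 211.

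The Upk3b site was the strongest distal site at any of the 10 genes, at percentile 99.2 of all peaks, beside a gene without a promoter peak. It lay nearest to the TSS of Upk3bl, whose own promoter peak was weak. It matched none of the 11 motifs searched and is printed on the plus strand with its 5 CpG in capitals. A second strong site, chr5:136046101-136046250 with 66.8 and 68.3, lay in an exon at the end of Upk3b.
Upk3b, downstream: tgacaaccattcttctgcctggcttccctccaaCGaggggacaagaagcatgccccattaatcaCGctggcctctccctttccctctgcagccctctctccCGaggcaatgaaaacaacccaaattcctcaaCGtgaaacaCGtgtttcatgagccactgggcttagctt

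Over all distal sites, the median signal in replicates 1 and 2 was 18.9 and 16.8 at the mesenchymal factors (66 sites), 15.3 and 15.3 at Foxa1 (16 sites) and 21.7 and 20.8 at the uroplakins (51 sites). It was 19.8 and 18.6 over all 151068 distal sites. In the top 10% of signal, averaged over the replicates, were 1 of 66 sites (1.52%) of the mesenchymal factors, 0 of 16 of Foxa1 and 6 of 51 (11.8%) of the uroplakins, against 7.44% of all distal sites. Of the 6, 5 lay nearest to the TSS of another gene and the other was the exon site of Upk3b. Of the 133 sites 0 differed by more than 2-fold between replicates, against 0.76% of all distal sites.

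**Figure D4:**
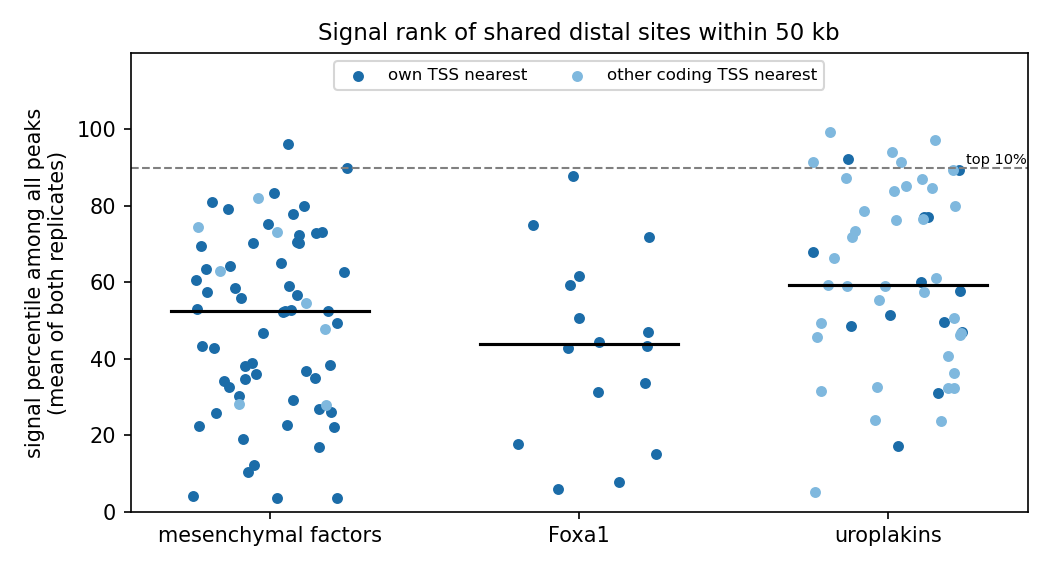
Percentile of signal among all peaks (vertical axis, mean of both replicates) of each shared distal site of the mesenchymal factors, Foxa1 and the uroplakins, dark where the gene's own TSS is nearest and light where another coding TSS is, with the median as a black line and the limit of the top 10% dashed. Above the dashed line stand 1 of 66 sites of the mesenchymal factors and 6 of 51 of the uroplakins, of which 5 are light.

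Consensus motifs of the factors at work in these tissues were counted in the central 150 bp of the distal sites and on either strand, with no overlap between matches of different motifs. The CArG box, the site of the serum response factor with which myocardin works, was found in 0 of 133 sites (exact 95% binomial interval up to 2.74%) and in 0.902% of all distal sites. The T-box letters AGGTGTGA were found in 1 of 133, the Upk1a site chr7:30602721-30602870, and in 0.378% of all distal sites. The forkhead letters TGTTTAC were in 3.01% and 3.18%, and the direct repeat of PPAR and RXR in 0 of 133 and 0.0444%.

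The GATA letters AGATAA were found in 5 of 66 sites of the mesenchymal factors, 2 of 16 of Foxa1 and 0 of 51 of the uroplakins (exact 95% interval up to 6.98%), against 6.97% of all distal sites. The KLF letters CCACNCCC ran the other way. They were in 2 of 66 sites of the mesenchymal factors, 0 of 16 of Foxa1 and 6 of 51 of the uroplakins. The exact 95% interval at the uroplakins was 4.44% to 23.9%, against 5.48% of all distal sites. The GATA and KLF intervals of the uroplakins each hold the share of all distal sites. All 6 KLF sites of the uroplakins lay nearest to the TSS of another gene. The grainyhead-like letters AACNNGTT were found in 5.26% of the 133 sites, with an exact 95% interval of 2.14% to 10.5%, and in 2.41% of all distal sites, which that interval holds.

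The TEAD letters GGAATGT were in 5.26% of the 133 sites and 4.94% of all, the AP-1 letters TGANTCA in 6.02% and 6.90%, and the letters TCANGTTTC of sine oculis homeobox factors in 3.01% and 1.22%. An exact CTCF match was in 1.50% of the 133 and 3.89% of all. Sites of 1 locus share their surroundings, so these shares describe 10 loci. In the RefSeq promoter table, 7 of the 10 genes had a window (not Upk1b, Upk2 and Myocd), and the TATA letters TATAAA were in none of the 7 and in 13.6% of all 32851 windows.

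Wider marker lists gave the surrounding picture. Of 16 further genes of ureter mesenchyme and smooth muscle, 16 had a promoter peak in both replicates, with a median signal of 102, and 10 lay above the median of their CpG quintile. The highest were Srf, the serum response factor gene, with 237 and 254, and Ptch1, the hedgehog receptor gene, with 176 and 200. Of 16 further urothelial genes, 12 had one, with a median signal of 30.6, and 1 of the 12 lay above its quintile median. The highest were the transcription factor genes Klf5, with 112 and 121, and Elf3, with 90.3 and 119.

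The shares of their quintiles average 82.1% for the mesenchymal list and 68.8% for the urothelial list. Krt5, a basal cell keratin gene, had no promoter peak in either replicate. Trp63, another basal cell gene, and Psca, an umbrella cell gene, had one in replicate 1 alone, and Shh, the epithelial hedgehog ligand gene, in replicate 2 alone. These 3 are named after their values were seen. Many genes of the mesenchymal list are also active in kidney stroma and vessels, and several of the urothelial list in collecting duct, so neither list is particular to the ureter. As a check of the tissue label, 8 of 8 kidney genes (among them Six2, Wt1, Nphs1 and Umod) and 0 of 4 genes of other tissues (Alb, Myh4, Scgb1a1 and Flg) had a promoter peak in both replicates, where the shares of their quintiles average 71.9% and 44.6%.

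**Figure D5:**
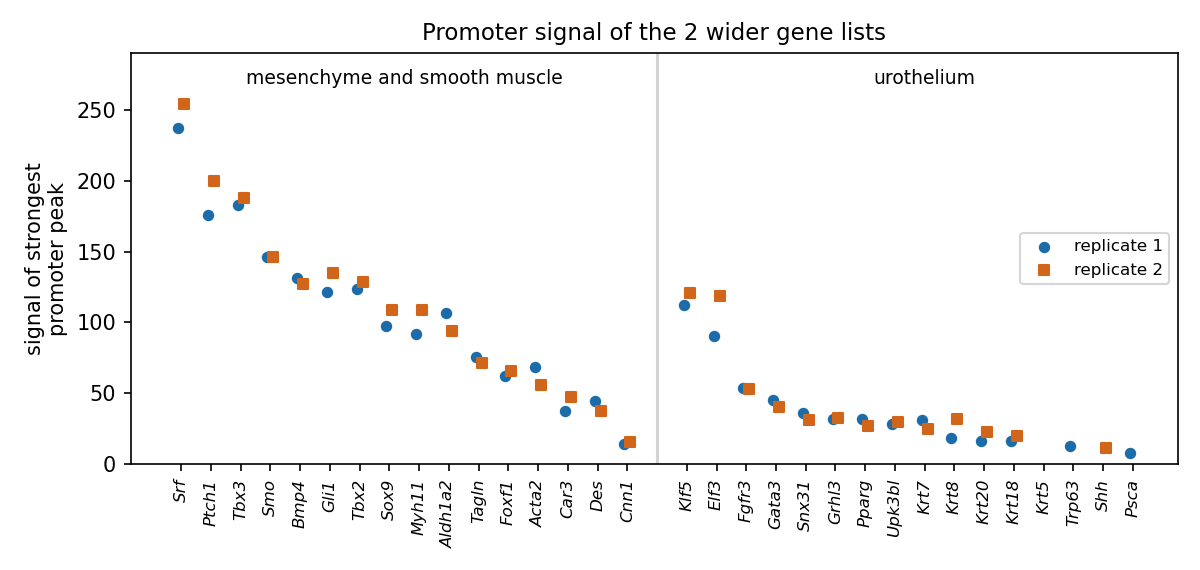
Deposited signal of the strongest promoter peak (vertical axis, from 0) in replicate 1 (circles) and replicate 2 (squares) for 16 genes of ureter mesenchyme and smooth muscle and 16 genes of urothelium, each list ordered by signal. The first list runs from Srf with 246 on average down to Cnn1 with 14.9, and most urothelial genes lie below 60, with Krt5 at no peak.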

How the data were processed

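DNase-seq peak lists of 2 replicates of newborn mouse kidney were used, with 266133 and 257133 peaks of mostly 150 bp. The authors deposited 1 narrowPeak list per replicate, made from reads of 36 nt aligned to the mm10-minimal assembly; per the file headers, replicates were not pooled. Aligner, peak caller, threshold and depth were not given in the sources used here. Each peak carries a deposited signal value, which may or may not be scaled for depth, and a deposited −log10 p-value, which was not used.

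A promoter peak reached to within 1 kb of any GENCODE M21 TSS of a gene. Shared sites were unions of peaks overlapping by at least 1 bp that held both replicates (197749, of which 151068 distal). Promoter CpG ratios were split into 5 quintiles. The steps were tested on simulated peaks. Depth is unknown, so no precision per peak can be given, and binomial intervals (95%, Clopper-Pearson) cover counting error only. With 1 group there was no test and no p-value. The members, wider lists, motifs and comparisons were chosen with earlier results of these data known. All 10 members are named, with the strongest distal site of each. In each wider list the 2 genes of highest rank and the first 2 in alphabetical order without a peak are named, and neighbours are named where a described site or promoter lies at them. Not every gene of the kidney check is reported here by name, although its count includes them all. Alternatives covered windows, overlap, signal, TSS choice and single replicates. Keeping promoter sites of genes not listed as protein-coding was added after seeing the data. So were the alternatives for counts by nearest TSS and the search for CTCF with 1 mismatch. Tools were samtools 1.23.1, pysam 0.24.0, matplotlib 3.10.9, pandas 2.3.3, numpy 2.4.6 and scipy 1.17.1 under Python 3.11.15.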

Additional observations from a re-analysis of the deposited data

How the results depend on the processing

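The promoter count of the mesenchymal factors was 4 of 4 under every alternative run, and that of the uroplakins ran from 3 (500 bp windows, without Upk2, and peaks in the upper 50% of signal) to 5 (2 kb windows, which reach the intronic site of Upk3b). With 500 bp windows the promoter signal was 19.2 for Foxa1 and 30.4 for Upk1a, and with the most 5′ TSS only it was 16.7 for Foxa1. The median distal counts of mesenchymal factors and uroplakins, 15.5 and 11 with a difference of 4.5, were 11 and 6 (difference 5) within 25 kb and 24 and 19 (difference 5) within 100 kb. They were 5.5 and 5 (difference 0.5) for the upper 50% of signal, and 23 and 16 (difference 7) with promoter sites included. A 75 bp overlap gave 12 for the mesenchymal factors (difference 2). Keeping promoter sites of genes not listed as protein-coding gave 20.5 (difference 9.5). The count nearest to the own TSS, 15 for the mesenchymal factors and 2 for the uroplakins, was 11 for the mesenchymal factors within 25 kb, 22.5 within 100 kb, 5.5 for the upper 50% of signal and 12 at 75 bp. It stayed at 15 and 2 when all annotated TSSs of coding genes were used. Leaving out 1 replicate gave 23 to 25 and 12 to 14 (difference 11 in both), and 23 to 24 and 3 for the own TSS. Single replicates count unshared peaks too. No difference changed direction. The cause of the smaller difference among strong peaks was not tested. No paired analysis was possible because there is 1 group. Unknown depth, 2 replicates that may share an animal and an unstated share of ureter in the tissue limit every value.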

Other observations

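Tshz2 is a gene of 438804 bp, far longer than the window of 50 kb. Counted over the gene body with 50 kb to each side, Tshz2 had 122 distal sites (22.6 per 100 kb), of which 97 lay in the gene body. On the same scale Tshz3 had 14.3 per 100 kb, Tbx18 10.9 and Myocd 8.79, and Foxa1 had 16.0. Among the uroplakin genes, Upk3b had 15.7, Upk1b 11.8, Upk2 11.7, Upk3a 6.64 and Upk1a 5.47. Per length, Tshz2 therefore stood above the other 9 genes, while Upk3b stood above Tshz3, Tbx18 and Myocd.

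At Tbx18 and Tshz3, transcripts that GENCODE lists as still to be tested, and not as protein-coding, have starts of their own. Sites at those starts are not distal by the definition used. With only promoter sites of protein-coding genes left out, Tbx18 had 16 distal sites in place of 12, Tshz3 25 in place of 19 and Upk2 17 in place of 12. The other 7 genes had equal counts under both definitions.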
